A study of Mus musculus with 38 samples.

Results

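The genes described here encode the nuclear part of mitochondrial oxidative phosphorylation, and they were followed in transplanted mouse mammary tumors through progression and chemotherapy. A gene was a member when its name in the array files began with Ndufa, Ndufb, Ndufc, Ndufs, Ndufv, Uqcr or Atp5 or with Cox and a digit from 4 to 8, or was Sdha, Sdhb, Sdhc, Sdhd or Cycs. The rule used no measured value and found 83 of the 28783 gene names on the array, represented by 116 probes. By name, 36 belong to complex I, 4 to complex II, 7 to complex III, 17 to complex IV and 15 to complex V. Cycs and the complex I assembly factor Ndufaf1 complete the set, together with Cox4nb and Atp5s, which the name rule admits although they are not structural subunits (Cox4nb is the neighbor of Cox4i1 on its chromosome, and Atp5s is a coupling factor). Subunits encoded in the mitochondrial genome, and the nuclear complex III gene Cyc1, have no name that the rule finds.

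Tumors came from focal hyperplasias of MMTV-PyMT;actin-GFP donors, in which the mouse mammary tumor virus promoter drives polyoma middle T in mammary epithelium and an actin promoter drives GFP. Hyperplasias were transplanted into cleared mammary fat pads of FVB/n females, and GFP-positive cells were sorted from every tumor or lung. The progression experiment held 5 adenomas from 5-week outgrowths, 6 carcinomas from 18-week outgrowths, 6 samples of disseminated cells from the lungs of mice that carried 18-week outgrowths (lungs of several mice pooled per sample) and 5 samples of lung metastases taken after the primary tumor had been removed. The chemotherapy experiment held 6 untreated tumors, 6 residual tumors taken 10 days after 1 dose of docetaxel, doxorubicin and cyclophosphamide and 4 relapsed tumors taken 10 days after 4 doses; treatment had begun 2 months after transplantation, and the deposited labels call these treated groups regressed and resistant. All donor cells carried both transgenes, so every group shares the oncogene. Each of the 38 samples was labeled with Cy5 and hybridized with the same Cy3-labeled Universal mouse reference RNA, so a value is a log2 ratio to that reference and levels of different genes cannot be set against each other.

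Oxidative phosphorylation takes place in the inner mitochondrial membrane. Complex I accepts electrons from NADH and complex II from succinate, ubiquinone carries them to complex III, the small protein cytochrome c passes them to complex IV, and complex IV reduces oxygen. The proton gradient built on the way drives the ATP synthase, complex V. Most subunits are encoded in the nucleus, a few core subunits of complexes I, III, IV and V are encoded in mitochondrial DNA, and many nuclear subunits are small accessory proteins that surround a catalytic core. Breast tumors, like most tissues, use this pathway next to glycolysis. The transcription factors NRF1, the ETS factor GABP, YY1 and the estrogen-related receptors are known activators of these genes.

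Members were among the brightest features of the arrays: the median member had a background-corrected tumor signal of 79372 in the progression arrays, where the median gene had 437, and of 15910 against 74.8 in the chemotherapy arrays. Between 80 and 83 of the 83 members were well above background on each array, and no member spot was saturated. The progression samples had been amplified in 2 rounds and the chemotherapy samples in 1 labeling reaction, and the experiments were normalized and tested apart. In the progression experiment, carcinomas and metastases shared 3 slides and adenomas and disseminated cells shared 3 other slides scanned on another day, so disseminated cells against adenomas and metastases against carcinomas are comparisons within slides, whereas for the other pairs slide, scan day and group cannot be told apart. Carcinoma replicate 6 stood apart: its median correlation with the other carcinomas was 0.755, against 0.938 to 0.958 for the other 5, and its 10 macrophage markers had a median log2 ratio of 4.82. The labeled tumor origin was checked with 8 luminal epithelial markers, whose median log2 ratio was 2.76 to 4.75 in adenomas, 3.22 to 5.17 in carcinomas, 0.36 to 5.08 in disseminated cells, 0.59 to 5.57 in metastases and 4.20 to 4.99 in the chemotherapy arrays. Macrophage markers were high in cells sorted from lungs, with medians of 3.16 to 4.97 in disseminated cells and 1.22 to 5.16 in metastases, against -0.76 to 0.16 in adenomas and -1.44 to 0.29 in the carcinomas other than replicate 6. The alveolar macrophage, neutrophil and lung epithelium lists moved the same way in disseminated cells, with mean medians of 7.01, 5.42 and 4.38 against 0.15, 0.66 and 1.10 in adenomas. In metastases against carcinomas, alveolar macrophage markers had a median change of 4.91 (3 of 3 called higher), lung epithelium 1.82 (3 of 5), macrophages 2.04 (3 of 10) and neutrophils 0.23 (0 of 6). The cells had been sorted by GFP, and whether these transcripts come from host cells was not tested. In bulk samples, fewer cells of a type and less RNA per cell cannot be told apart.

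Oxidative phosphorylation genes were lower in cells from the lungs than in primary tumors. The median member had a log2 ratio of 0.21, 0.22, 0.30, 0.38 and 0.42 in the 5 adenomas and of 0.07 to 0.55 (median 0.41) in the carcinomas. In disseminated cells it was -0.83 to 0.05 (median -0.33), and in metastases it was -0.86, -0.57, -0.45, -0.38 and -0.13. Every array of disseminated cells and of metastases lay below every adenoma and every carcinoma, the nearest being disseminated replicate 4 at 0.05 and carcinoma replicate 6 at 0.07. Disseminated cells and metastases overlapped, as did adenomas and carcinomas. Disseminated replicate 5, lowest at -0.83, had the highest macrophage median of its group (4.97) and replicate 4 the lowest (3.16). Metastasis replicate 4, lowest at -0.86, likewise had the highest macrophage median (5.16) and the lowest luminal median (0.59), and the part of either list in these levels was not tested.

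**Figure D1:**
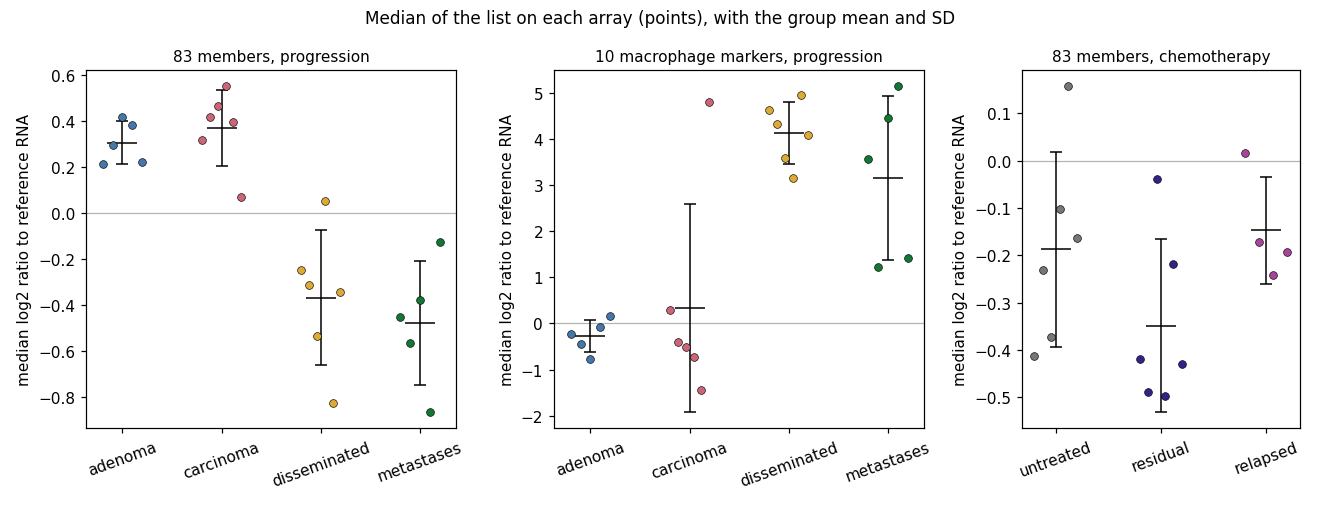
Median log2 ratio to the reference RNA of the 83 members on each progression array (left), of 10 macrophage markers on the same arrays (middle) and of the 83 members on each chemotherapy array (right); points are arrays, and bars give the group mean and SD. Members sit between 0.07 and 0.55 in adenomas and carcinomas and between -0.86 and 0.05 in disseminated cells and metastases, while macrophage markers run the other way except in carcinoma replicate 6, at 4.82.

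Gene by gene, limma's moderated test on all progression arrays, with Benjamini-Hochberg adjustment over all genes, called a member at an adjusted p below 0.05. In disseminated cells against adenomas, 46 of 83 members (55.4%) were lower and 0 were higher, and among all 28783 genes 12.2% were lower and 8.41% were higher. In metastases against carcinomas, 48 members (57.8%) were lower and 3 were higher, against 14% and 8.05% of all genes. With a change of at least 2-fold required as well, 25 members were lower and 0 higher in disseminated cells (5.82% and 4.69% of all genes), and 36 were lower and 3 higher in metastases (5.3% and 4.8%). The median member changed by -0.69 and -0.83 on the log2 scale, and the median of all genes changed by -0.01 and -0.05. Of the 46 and 48 lower members 39 were shared, 84.8% of the first and 81.2% of the second. The comparisons have no array in common, but both come from the same fit and share its estimate of spread. The same overlap over all genes was not counted.

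The other pairs ran the same way. Metastases against adenomas had 45 lower and 9 higher members (15.3% and 13.4% of all genes), and disseminated cells against carcinomas had 45 lower and 1 higher (17.4% and 9.1%), but slide and scan day differ between these groups. In all, 26 members were called lower in each of the 4 comparisons of a lung group with a primary tumor group, and 12 were called in none, against 3.52% and 48.6% of all genes; these comparisons share groups. Because members are bright, they were also set beside the 616 other genes at least as bright as the median member, of which 28.9% were lower and 20.3% higher in metastases against carcinomas, and 19% and 13.8% in disseminated cells against adenomas. The 42 brightest members had 28 and 25 lower calls in these comparisons.

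Within single slides the direction held. Against the adenomas on the same slide, the members' median change in disseminated cells was -0.65, -1.0 and -0.55 on the 3 slides, with 62, 74 and 75 of 83 members lower (56.4%, 46.1% and 50.9% of all genes). Against the carcinomas on the same slide, it was -0.70, -1.03 and -0.87 in metastases, with 64, 67 and 66 lower (60.5%, 56.3% and 58.5% of all genes). Macrophage markers moved with these differences. With the mean of that list as a covariate, a fit chosen after the data were seen, the calls fell to 0 in disseminated cells against adenomas, while the calls over all genes fell from 20.6% to 0.257%, and the members' median change was -0.37 with 72 of 83 still below 0. Macrophage markers of these 2 groups did not overlap, so macrophage content and group cannot be told apart there. In metastases against carcinomas, the covariate left 38 lower members and 1 higher, and 8 lower when carcinoma replicate 6 was left out as well, with a median change of -0.61. Only carcinoma replicate 6 had a macrophage median in the range of metastases. Macrophage content and group therefore cannot be told apart in this pair without that replicate, and with it their separation rests on that array. Without that replicate and with no covariate, 51 were lower and 7 were higher. The share of all genes called in these fits of metastases against carcinomas is not set beside the counts. They therefore do not show whether members lost or gained calls more than other genes did.

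**Figure D2:**
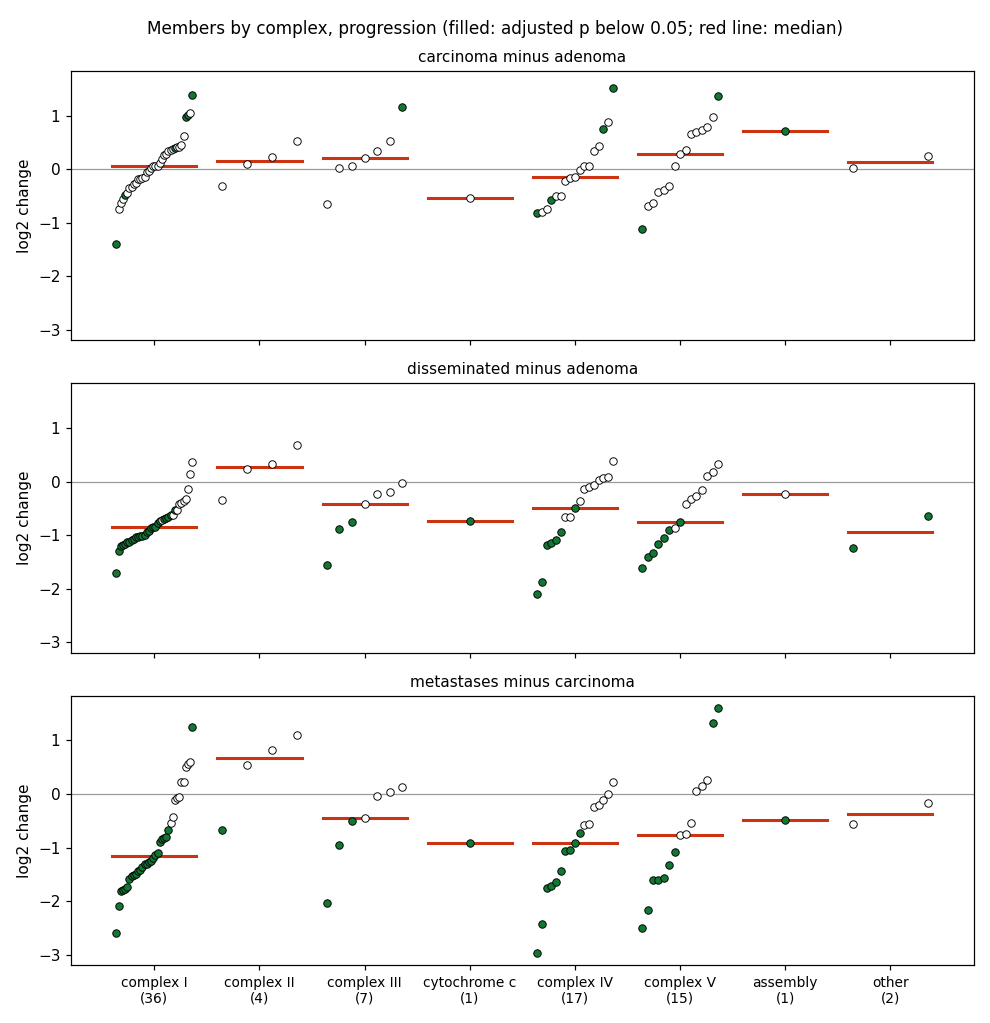
Log2 change of each member, grouped by complex (number of members in parentheses), in carcinomas against adenomas, disseminated cells against adenomas and metastases against carcinomas; filled points passed an adjusted p of 0.05 and red lines are medians. Complexes I, IV and V lie mostly below 0 in the lower panels, with medians of -1.17, -0.92 and -0.77 in metastases. Complex II has a median of 0.68 in metastases, with Sdhc called lower at -0.66.

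Complex I, the NADH dehydrogenase, held most of the lower genes: 26 of its 36 members were called lower and 0 higher in disseminated cells against adenomas, and 25 lower and 1 higher in metastases against carcinomas. Its median changes were -0.84 and -1.17. Of 29 accessory subunits 22 were lower in each comparison, and of the 7 nuclear core subunits, which hold the flavin, the iron-sulfur clusters or the quinone site, 4 and 3 were lower; whether accessory and core subunits differ was not tested. Ndufb10, an accessory subunit of the membrane arm, fell most among the members well above background on every array in metastases. Its log2 ratio was -0.07 to 0.94 (median 0.72) in carcinomas and -2.63, -2.03, -1.81, -1.71 and -1.67 in metastases, a 6.05-fold difference (log2 change -2.60 ± 0.26, SE, adjusted p = 1.9e-05). All metastases lay below all carcinomas, and carcinoma replicate 6 was the lowest of its group.

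Ndufb2, another membrane arm subunit, was 1.48, 1.62, 1.70, 1.82 and 2.01 in adenomas, 1.35 to 2.40 (median 2.23) in carcinomas, -0.88 to 1.0 (median -0.02) in disseminated cells and -0.93, -0.28, 0.09, 0.26 and 0.84 in metastases. Both lung groups lay below both primary groups (log2 change -1.71 ± 0.30, SE, adjusted p = 0.00117 in disseminated cells against adenomas, and log2 change -2.10 ± 0.30, SE, adjusted p = 0.00018 in metastases against carcinomas). Ndufs7, a core subunit with an iron-sulfur cluster, changed by -1.09 and -1.44 and Ndufs5, an accessory subunit, by -1.12 and -1.73 in the same comparisons, and all 4 changes were called. Ndufa4, named as a complex I gene but since assigned to complex IV, changed by -1.16 and -1.31, both called.

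Ndufb6, also an accessory subunit, was called in opposite directions in different pairs. All its calls were between groups on different slides and scan days, so slide, scan day and group cannot be told apart in them. The call in carcinomas against adenomas was lost in 15 of 24 alternatives. It was 0.39, 0.58, 0.76, 0.81 and 0.86 in adenomas, 1.11 to 1.94 (median 1.80) in carcinomas, -0.40 to 1.09 (median 0.08) in disseminated cells and 1.49, 1.55, 2.10, 2.33 and 3.35 in metastases. Metastases lay above all adenomas and all disseminated cells (log2 change 1.48 ± 0.32, SE, adjusted p = 0.00209 against adenomas), and they overlapped the carcinomas, against which the change of 0.51 was not called. Disseminated cells lay below all carcinomas (log2 change -1.38 ± 0.30, SE, adjusted p = 0.00222), and their change of -0.41 against adenomas, on the same slides, was not called.

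Complex II, succinate dehydrogenase, had 0 of 4 members called in disseminated cells against adenomas and 1 lower in metastases against carcinomas. Sdha carries the flavin and Sdhb the iron-sulfur clusters, whereas Sdhc and Sdhd anchor them in the membrane. Sdha was -1.56, -1.18, -0.80, -0.71 and -0.55 in adenomas and -0.23, 0.57, 0.84, 0.96 and 1.23 in metastases, which did not overlap (log2 change 1.63 ± 0.46, SE, adjusted p = 0.0112). In carcinomas it was -0.93 to 0.21 (median -0.41) and in disseminated cells -2.03 to 1.33 (median -0.23), and the change in metastases against carcinomas was 1.11 with an adjusted p of 0.0752 and a 95% interval of 0.20 to 2.02. Sdhb rose by 0.77 in metastases against adenomas, a call that was lost in 11 of 22 alternatives. Sdhd changed by 0.82 against carcinomas and 0.91 against adenomas, with adjusted p of 0.0956 and 0.062. Sdhc was the exception and was lower in metastases than in carcinomas (log2 change -0.66 ± 0.17, SE, adjusted p = 0.01), with -0.45, -0.26, -0.26, -0.25 and 0.04 in metastases and -0.22 to 0.77 (median 0.53) in carcinomas, so that the groups overlapped through carcinoma replicate 1, at -0.22. These values are from the brightest probe of Sdhc, and its 2 probes disagreed in direction in this comparison.

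In complex III, which moves electrons from ubiquinol to cytochrome c, 3 of 4 small subunits and 0 of 3 core subunits were called lower in each of the within-slide comparisons. Uqcr and Uqcrb were called in both, with Uqcrq in disseminated cells and Uqcrh in metastases. The probes of Uqcrq disagreed in direction in disseminated cells against adenomas. Uqcr, one of the smallest subunits, was 0.15 to 2.24 (median 1.92) in carcinomas, -1.29, -0.50, -0.38, -0.33 and 0.55 in metastases, 0.97, 1.13, 1.24, 1.45 and 1.71 in adenomas and -1.35 to 0.90 (median -0.33) in disseminated cells. It was 4.1-fold lower in metastases than in carcinomas (log2 change -2.04 ± 0.39, SE, adjusted p = 0.00145), where only carcinoma replicate 6, at 0.15, reached the range of metastases, and 2.94-fold lower in disseminated cells than in adenomas (log2 change -1.56 ± 0.39, SE, adjusted p = 0.00883). Uqcrb, another small subunit, changed by -0.49 in metastases against carcinomas and by -0.76 in disseminated cells against adenomas, both called. The core proteins Uqcrc1 and Uqcrc2 and the Rieske iron-sulfur protein Uqcrfs1 changed by 0.14, 0.04 and -0.45 in metastases against carcinomas, and none was called. Cyc1, the cytochrome of this complex, is outside the name rule and was called higher there, at 1.06. It was not called in disseminated cells against adenomas, at -0.08. Whether core and small subunits differ was not tested.

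Cycs, the mobile electron carrier, depended on the probe. Its brightest probe was -0.45 to 0.38 (median -0.27) in carcinomas and -1.42, -1.18, -0.96, -0.89 and -0.86 in metastases and was lower there (log2 change -0.91 ± 0.20, SE, adjusted p = 0.00298). The 2 dimmer probes of Cycs changed by 1.04 and 0.98 in the same comparison, with adjusted p over all probes of 0.0746 and 0.0949, and a mean of its probes reversed the direction. Atp5b, the catalytic beta subunit of ATP synthase, was not called with its brightest probe in metastases against carcinomas, at 0.26, while its 2 other probes were higher by 2.53 and 1.94, with adjusted p over all probes of 0.0056 and 0.00201. Probes of Atp5b disagreed in direction only in metastases against adenomas. For Uqcrq the brightest probe changed by -0.03 and the other, far dimmer, by 0.94. In at least 1 progression comparison, probes also disagreed in direction for Ndufb8, Atp5f1, Ndufab1, Sdhc, Ndufs4, Cox4nb, Ndufa3 and Ndufs1. Which probe follows the transcript was not tested.

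Complex IV, cytochrome c oxidase, had 7 of 17 members lower and 0 higher in disseminated cells against adenomas and 10 lower and 0 higher in metastases against carcinomas. Several of its subunits exist as paired forms, of which one is best known from heart and skeletal muscle. Cox7a1, the muscle form, was 0.65, 0.96, 1.54, 1.55 and 2.15 in adenomas, 0.78 to 1.57 (median 1.30) in carcinomas, -1.60 to 1.45 (median -0.60) in disseminated cells and -1.37, -1.30, -1.25, -1.14 and -1.08 in metastases, and fell 5.38-fold in metastases against carcinomas (log2 change -2.43 ± 0.38, SE, adjusted p = 0.00034). Its general counterpart Cox7a2 changed by -1.65 and the related Cox7a2l, which takes part in supercomplexes, by -0.92, both called. Cox7a1 also lost 1.87 in disseminated cells against adenomas, where disseminated replicates ranged up to 1.45 and overlapped the adenomas.

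Cox6b1, the general form of a subunit on the outer face, was 2.11, 2.19, 2.37, 2.55 and 2.65 in adenomas, 0.87 to 1.98 (median 1.78) in carcinomas, 0.74 to 2.32 (median 1.50) in disseminated cells and -0.51, -0.26, -0.22, -0.04 and 0.30 in metastases. Metastases lay below every other array (log2 change -1.71 ± 0.24, SE, adjusted p = 0.00017 against carcinomas, and log2 change -1.59 ± 0.24, SE, adjusted p = 0.00047 against disseminated cells), carcinomas lay below adenomas, and disseminated cells overlapped both. Its testis form Cox6b2 changed by -0.57 in metastases against carcinomas and was not called. Cox6a1, the brightest complex IV member, was higher in carcinomas and metastases than in adenomas (0.76 and 0.77), and its muscle form Cox6a2 was not called in any progression comparison.

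Cox8a, the general form of the smallest subunit, was -0.12, 0.05, 0.12, 0.18 and 0.25 in adenomas and 1.36 to 1.79 (median 1.65) in carcinomas, -0.43 to 0.73 (median 0.06) in disseminated cells and 0.21, 0.34, 0.50, 0.65 and 1.06 in metastases. The carcinomas stood above all other arrays. The muscle form Cox8b was 0.67 to 5.40 (median 3.47) in carcinomas and -0.04, 0.14, 0.17, 0.29 and 1.20 in metastases, where 4 of 5 arrays were well above background, and the groups overlapped (log2 change -2.96 ± 0.61, SE, adjusted p = 0.0024). Cox8c was not well above background on any carcinoma, disseminated or metastasis array. Cox4i1, the general form of subunit 4, changed by -0.66 and -0.56 in the within-slide comparisons and was not called, and Cox4i2, its hypoxia- and lung-associated form, changed by 0.06 and -0.11.

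**Figure D3:**
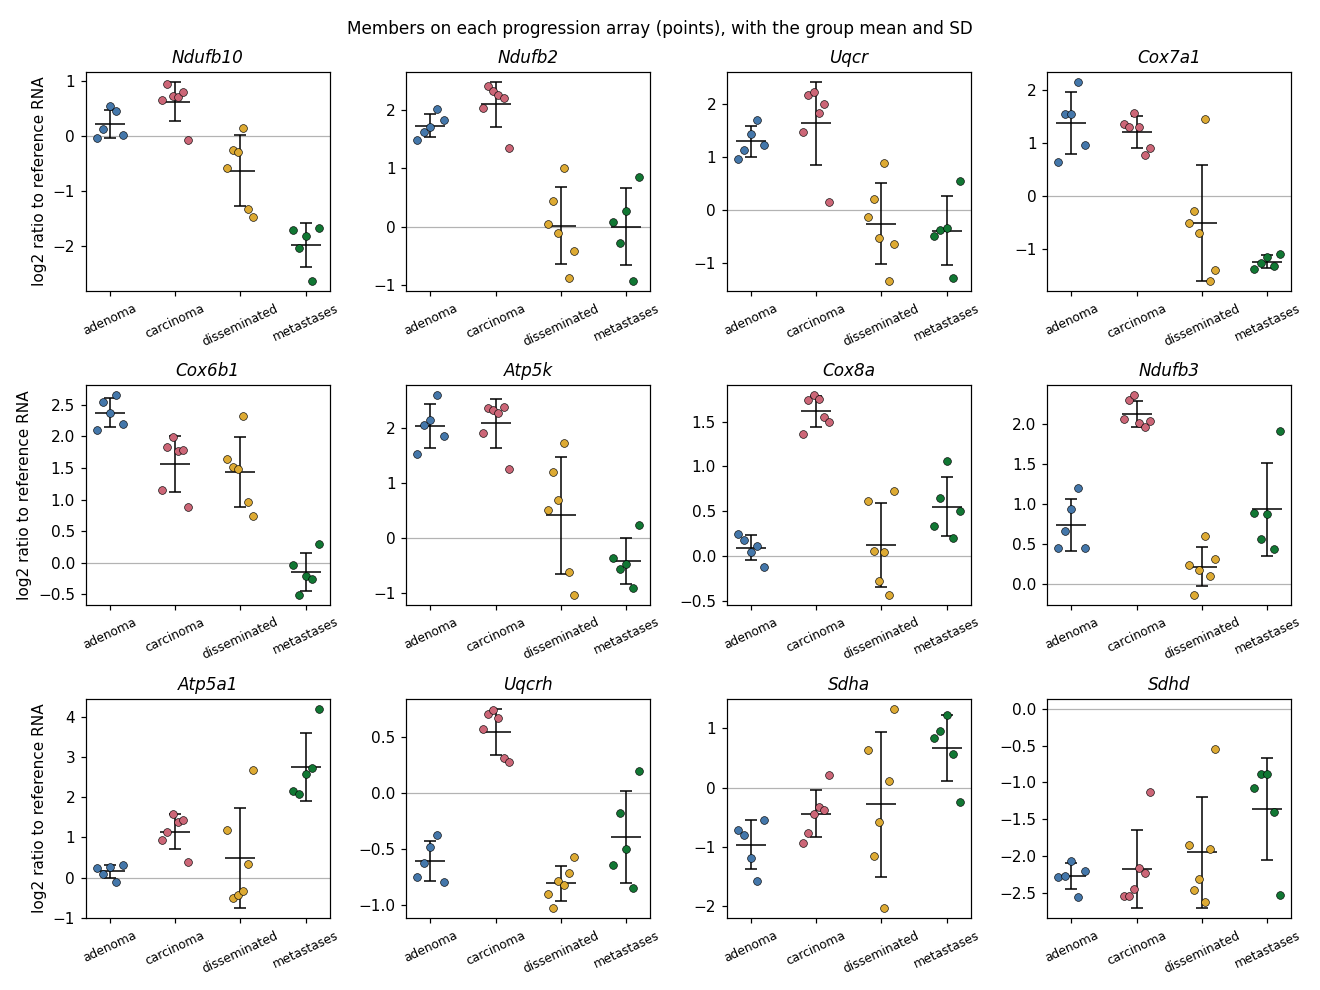
Log2 ratio to the reference RNA of 12 members on each progression array, with the group mean and SD; each panel has its own vertical scale. Ndufb10, Ndufb2, Uqcr, Cox7a1, Cox6b1 and Atp5k have their lowest mean in a lung group, Cox8a, Ndufb3 and Uqcrh their highest in carcinomas, and Atp5a1 and Sdha their highest in metastases.

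Complex V, the ATP synthase, held the largest rise and several large falls. Atp5a1, the alpha subunit of the catalytic head, was -0.10, 0.09, 0.23, 0.27 and 0.30 in adenomas, 0.38 to 1.58 (median 1.26) in carcinomas, -0.50 to 2.68 (median 0.00) in disseminated cells and 2.08, 2.16, 2.58, 2.73 and 4.19 in metastases. Metastases exceeded adenomas 6.02-fold (log2 change 2.59 ± 0.49, SE, adjusted p = 0.00068) and carcinomas 3.05-fold (log2 change 1.61 ± 0.47, SE, adjusted p = 0.0186), with no overlap; leaving out metastasis replicate 5, at 4.19, gave a limma adjusted p of 0.0526 against carcinomas. Disseminated cells reached up to 2.68 and overlapped them. Atp5f1, a stalk subunit, was higher by 1.33 in metastases against carcinomas, a call lost in 11 of 25 alternatives.

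Several small subunits of the membrane part fell. Atp5k, subunit e, was 1.25 to 2.39 (median 2.30) in carcinomas and -0.90, -0.57, -0.48, -0.37 and 0.23 in metastases, 5.66-fold lower (log2 change -2.50 ± 0.38, SE, adjusted p = 0.0003), and 1.51, 1.85, 2.05, 2.14 and 2.59 in adenomas and -1.03 to 1.73 (median 0.60) in disseminated cells (log2 change -1.62 ± 0.38, SE, adjusted p = 0.00657). Atp5j2, subunit f, was -1.23 to 0.86 (median 0.57) in carcinomas and -2.44, -2.01, -1.99, -1.92 and -1.30 in metastases (log2 change -2.16 ± 0.38, SE, adjusted p = 0.00082), and all carcinomas lay above all metastases. The c subunit that forms the rotating ring is encoded by Atp5g1, Atp5g2 and Atp5g3. Atp5g1 and Atp5g2 fell by 1.33 and 1.60 on the log2 scale, while Atp5g3 changed by -0.74 and was not called. In the head, the small subunits Atp5d and Atp5e changed by -1.61 and -1.56, both called.

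**Figure D4:**
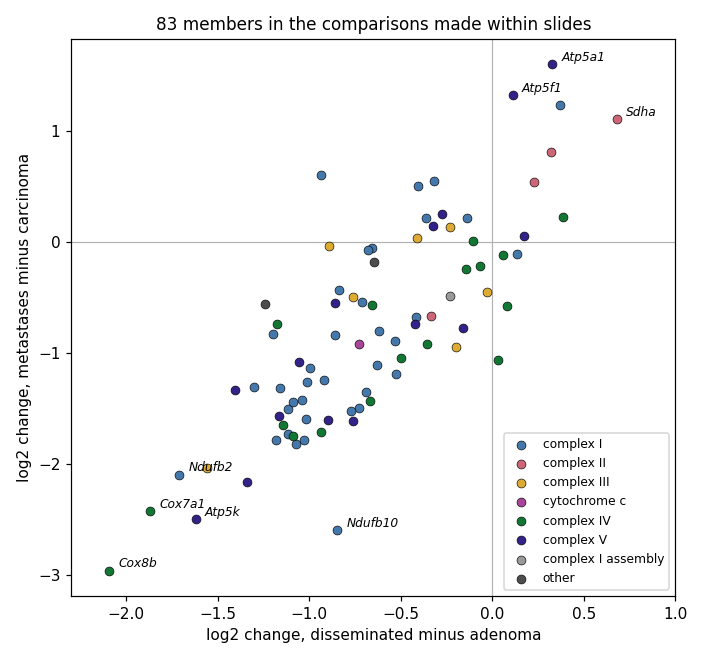
Log2 change of the 83 members in disseminated cells against adenomas (horizontal) and in metastases against carcinomas (vertical), colored by complex; the comparisons share no array. Most members lie below 0 on both axes, and Atp5a1, Atp5f1 and the complex II genes Sdha, Sdhb and Sdhd lie above 0 on both.

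Between adenomas and carcinomas, few members were called. In all, 9 members were higher and 5 were lower, against 7.05% and 4.61% of all genes, and the median change was 0.06. These groups lie on different slides and scan days. Cox8a (log2 change 1.52 ± 0.18, SE, adjusted p = 0.00011), Ndufb3 (log2 change 1.39 ± 0.21, SE, adjusted p = 0.00049) and Atp5d (log2 change 1.36 ± 0.27, SE, adjusted p = 0.00333) were the largest rises. Ndufb3, an accessory complex I subunit, was 0.45, 0.45, 0.66, 0.94 and 1.20 in adenomas and 1.97 to 2.36 (median 2.05) in carcinomas, and Uqcrh, the hinge protein of complex III, rose by 1.16. Ndufa11 fell most, from 0.63, 0.94, 1.22, 1.38 and 1.70 in adenomas to -0.78 to 0.21 (median -0.05) in carcinomas (log2 change -1.39 ± 0.28, SE, adjusted p = 0.00438), followed by Atp5g1 at -1.11 and Cox6b1 at -0.81; the call of Cox6b1 was lost in 10 of 24 alternatives.

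Metastases and disseminated cells were apart in both directions, with 13 members higher and 15 lower in metastases (7.07% and 6.02% of all genes) and a median change of -0.04. Slide and scan day also differ between these 2 groups. Without disseminated replicate 6, whose median correlation with its group was 0.706, 43 members were called, and a fit of these 2 groups alone called 11. The share of all genes called in those fits is not set beside these counts. Among the higher genes that did not overlap were Ndufb6 (log2 change 1.89 ± 0.31, SE, adjusted p = 0.00075) and Ndufa9, an accessory subunit near the quinone site (log2 change 0.95 ± 0.22, SE, adjusted p = 0.00727), whose call was lost when only these groups were fitted. The lower genes that did not overlap were led by Cox6b1 (-1.59), Ndufb10 (-1.35) and Cox7a2l (-1.15). Ndufb10 in disseminated cells was -1.46 to 0.14 (median -0.44), above every metastasis. Of the members outside the complexes, Ndufaf1 was lower in metastases than in carcinomas by 0.48, a call lost in 11 of 25 alternatives, and Atp5s was lower in disseminated cells than in adenomas (log2 change -1.24 ± 0.22, SE, adjusted p = 0.00141).

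Genes that work with the chain were read from lists of general knowledge. Of 31 measured partners and assembly factors, 12 were lower and 1 was higher in disseminated cells against adenomas, and 11 were lower and 2 higher in metastases against carcinomas, with median changes of -0.44 and -0.28. Surf1, needed to assemble complex IV, changed by -1.01 and -1.67, Ecsit, which assists complex I, by -1.30 and -1.53, and the ATP synthase assembly factor Atpaf1 by -1.25 and -1.05, all called. The higher genes in metastases were Cyc1, the cytochrome of complex III, at 1.06 and Sco1, a copper chaperone of complex IV, at 1.32. Of 13 citric acid cycle genes, 1 was higher and 1 lower in disseminated cells and 4 were higher and 2 lower in metastases, among them Dld at 2.11 and Idh3g at -1.53. Of 7 carriers and pores, 0 were lower in either comparison. The pore Vdac2 was higher in both, by 0.54 in disseminated cells and 0.67 in metastases, and the phosphate carrier Slc25a3 was higher in metastases, by 2.23. Of 14 genes of mitochondrial transcription and genome upkeep, 4 and 2 were lower and 0 were higher in the same comparisons. Of all genes, 12.2% and 14% were lower and 8.41% and 8.05% were higher in these comparisons.

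Promoters were read to show what the members share in sequence. For 68 of the 83 members a promoter window of 300 bases, 250 before and 50 after the start, was found in RefSeq (build GRCm38.p6). Both strands were searched for 4 exact motifs. GCGCNTGCG, the core of the NRF1 site, was in 23 of the 68 (33.8%), and in 7.12% of the 27025 genes with a promoter. The ETS core CCGGAAG was in 17 (25%, against 9.93%), the YY1 core GATGGCGG in 6 (8.82%, against 1.97%) and the estrogen-related receptor core AAGGTCA in 8 (11.8%, against 5.38%). None of the motifs contains another. Of the 43 members with a promoter that were lower in metastases against carcinomas, 15 held the NRF1 core, and of the 24 not called 8 did.

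Windows of 3 members that fell, of Cycs, whose probes disagree, and of Sdha follow 5′ to 3′ on the strand of the gene. Matches to any of the 4 motifs are in capitals. The windows are shown because the same NRF1 core stands before genes called in opposite directions. Sdha was called higher only in metastases against adenomas, which differ in slide and scan day, and its rise against carcinomas was not called. A match describes letters and is not a measured binding site.
Ndufb10, chr17:24724374-24724673, - strand: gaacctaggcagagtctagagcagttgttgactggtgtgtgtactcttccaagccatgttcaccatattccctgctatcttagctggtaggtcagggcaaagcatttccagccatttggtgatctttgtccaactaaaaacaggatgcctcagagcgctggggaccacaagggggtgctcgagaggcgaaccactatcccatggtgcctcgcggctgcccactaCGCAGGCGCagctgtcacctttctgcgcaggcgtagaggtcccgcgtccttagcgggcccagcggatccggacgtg
Uqcr (now Uqcr11), chr10:80406772-80407071, - strand: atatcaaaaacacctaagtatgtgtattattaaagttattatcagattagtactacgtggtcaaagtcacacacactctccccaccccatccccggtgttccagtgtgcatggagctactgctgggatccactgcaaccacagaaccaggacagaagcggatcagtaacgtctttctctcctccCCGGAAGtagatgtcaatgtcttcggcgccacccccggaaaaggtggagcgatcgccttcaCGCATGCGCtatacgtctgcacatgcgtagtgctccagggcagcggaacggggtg
Cycs, chr6:50566520-50566819, - strand: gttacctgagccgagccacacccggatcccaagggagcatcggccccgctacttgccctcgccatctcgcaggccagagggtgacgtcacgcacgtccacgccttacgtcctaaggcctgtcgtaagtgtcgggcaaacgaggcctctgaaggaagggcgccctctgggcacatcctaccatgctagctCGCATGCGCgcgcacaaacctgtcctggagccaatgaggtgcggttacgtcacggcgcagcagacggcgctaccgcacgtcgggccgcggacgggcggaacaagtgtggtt
Atp5k, chr5:108434350-108434649, - strand: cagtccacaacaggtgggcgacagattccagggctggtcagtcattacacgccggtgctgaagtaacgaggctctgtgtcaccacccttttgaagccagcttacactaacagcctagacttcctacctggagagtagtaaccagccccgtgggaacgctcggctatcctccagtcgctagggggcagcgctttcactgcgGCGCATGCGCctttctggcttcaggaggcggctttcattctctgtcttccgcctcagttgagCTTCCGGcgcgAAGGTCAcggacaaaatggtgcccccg
Sdha, chr13:74350191-74350490, - strand: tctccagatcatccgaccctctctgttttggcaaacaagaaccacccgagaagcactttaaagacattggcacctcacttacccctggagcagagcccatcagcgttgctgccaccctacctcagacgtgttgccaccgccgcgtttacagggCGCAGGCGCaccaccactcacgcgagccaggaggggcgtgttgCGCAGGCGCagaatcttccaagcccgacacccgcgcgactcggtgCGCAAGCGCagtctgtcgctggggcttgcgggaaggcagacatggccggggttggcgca

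Ndufb10 and Cycs hold 1 NRF1 core each and Sdha holds 3. Uqcr holds 1 together with an ETS core, and Atp5k holds overlapping NRF1 cores on both strands, an ETS core and an estrogen-related receptor core.

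In the chemotherapy experiment no member passed the test in any comparison, although nearly all moved a little the same way in residual tumors. The median member was -0.41, -0.37, -0.23, -0.16, -0.10 and 0.16 in the 6 untreated tumors, -0.50, -0.49, -0.43, -0.42, -0.22 and -0.04 in the 6 residual tumors and -0.24, -0.19, -0.17 and 0.02 in the 4 relapsed tumors, and the groups overlapped. In residual against untreated tumors 79 of 83 members had a negative change, with a median of -0.21 and a range of -0.59 to 0.30, and 48.9% of all genes had a positive one. In relapsed against residual tumors 78 of 83 were positive, with a median of 0.21, and relapsed against untreated tumors gave 46 positive and a median of 0.02. The 2 comparisons with residual tumors share those arrays.

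The limma test called 0 members in each comparison. In residual against untreated tumors, 0.174% of all genes were called higher and 0.0243% lower, and at an unadjusted p below 0.05 20 members were lower and 1 was higher, against 4% and 5.09% of all genes. In relapsed against residual tumors, 0.00695% of all genes were called higher and 0.264% lower, and 24 members were higher and 0 lower at an unadjusted p below 0.05, against 4.49% and 3.3% of all genes. In relapsed against untreated tumors, 0.00695% were called higher and 0% lower, and 1 member was higher and 0 lower at an unadjusted p below 0.05, against 4.62% and 3.04% of all genes. The 832 other genes as bright as the median member had median changes of -0.08 in residual against untreated and 0.13 in relapsed against residual tumors. Without normalization between arrays, the members' medians were -0.12 and 0.12, with 72 of 83 in the same direction each time.

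**Figure D5:**
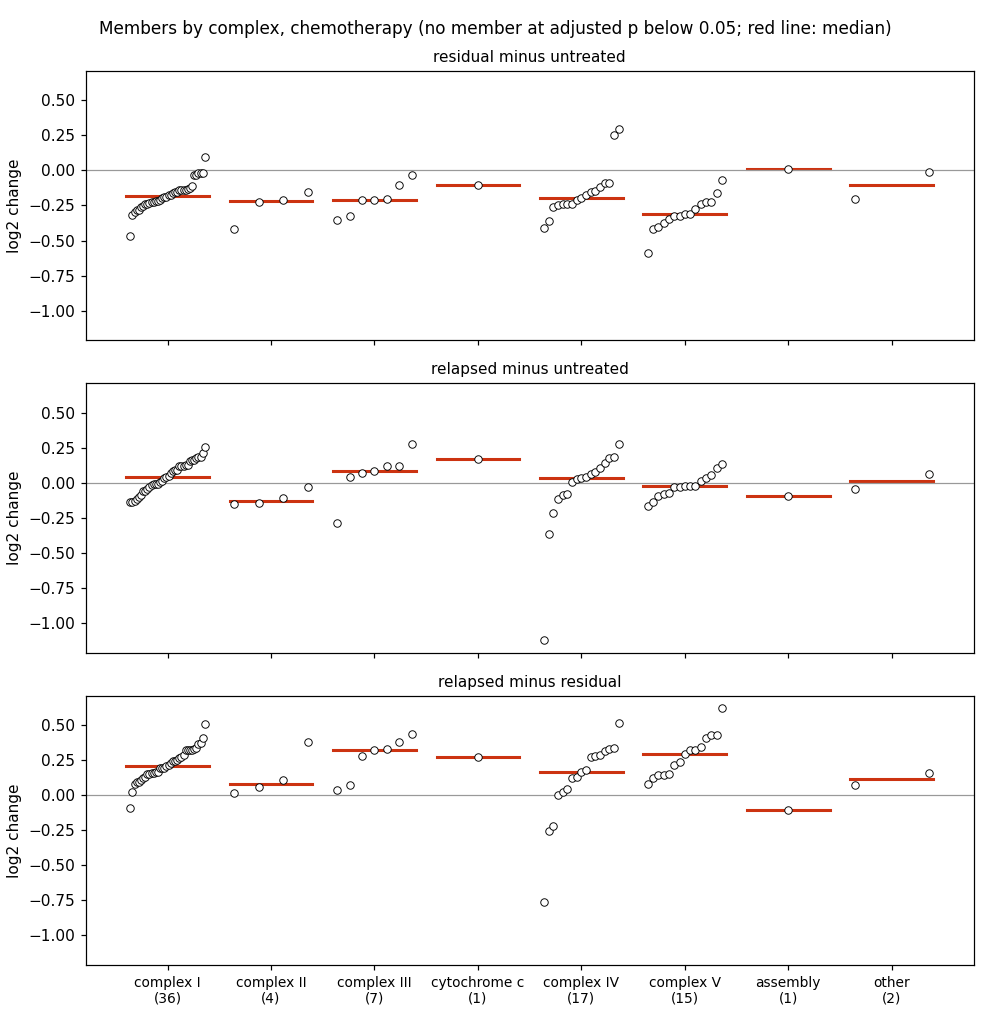
Log2 change of each member by complex (number of members in parentheses) in residual against untreated, relapsed against untreated and relapsed against residual tumors; no member passed an adjusted p of 0.05, and red lines are medians. Members lie mostly just below 0 in the top panel (79 of 83) and just above 0 in the bottom panel (78 of 83).

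All 5 complexes had a negative median. Median changes in residual against untreated tumors were -0.18 for complex I, -0.22 for complex II, -0.21 for complex III, -0.20 for complex IV and -0.31 for complex V. Atp5d had the smallest p. It was -0.13 to 0.20 (median 0.04) without treatment, -0.50 to -0.11 (median -0.25) in residual disease and -0.31, -0.06, -0.04 and 0.19 after relapse, with a residual change of -0.33 ± 0.09 (SE, limma adjusted p = 0.253). Untreated and residual tumors overlapped only between -0.13 and -0.11. Sdhd was -0.84 to -0.11 (median -0.59) in untreated and -1.26 to -0.62 (median -1.06) in residual tumors, a change of -0.41 with a 95% interval of -0.69 to -0.14. Cox4i1 and Uqcrh were the only members whose relapsed and residual tumors did not overlap, both higher after relapse, and 0.705% of all genes did so in that direction and 0.994% in the other. Cox4i1 was -1.17 to -0.78 (median -0.94) in residual and -0.78, -0.73, -0.52 and -0.45 in relapsed tumors (log2 change 0.33 ± 0.09, SE, adjusted p = 0.254), and Uqcrh was -0.12 to 0.05 (median -0.06) and 0.10, 0.23, 0.32 and 0.45.

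Members with large progression changes were not called here. In the order untreated, residual and relapsed, Cox7a1 was 0.24 to 1.98 (median 1.04), then 0.15 to 1.24 (median 0.61), then 0.42, 0.59, 0.80 and 0.89. Cox6b1 was -0.45 to 0.49 (median -0.06), -0.39 to 0.13 (median -0.31) and -0.31, -0.14, -0.02 and -0.01. Both genes overlapped in all 3 groups. Sdha was -0.68 to -0.02 (median -0.21), -0.99 to 0.05 (median -0.43) and -0.49, -0.46, -0.36 and -0.19, and its residual change of -0.22 and relapsed change of -0.11 were not called. In the same order, macrophage markers had group means of 0.39, -0.12 and -0.71, with single arrays from -2.0 to 2.40, and luminal markers 4.63, 4.63 and 4.66; their part in the members' shift was not tested. With slide as a fixed block the members' median change was -0.20 in residual tumors, with 67 of 83 negative. Most untreated and residual tumors lay on slides without the other group, so that fit rests on few arrays. Slide and treatment cannot be fully told apart there.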

How the data were processed

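RNA of 38 samples of sorted GFP-positive cells was compared with a common reference on 2-color Agilent mouse arrays. The members and gene lists were chosen with earlier results of these data known. Spot intensities were deposited by the authors as Agilent Feature Extraction 10.7 gave them, and the deposited table of processed values, which the authors derived with limma, holds log2 ratios of sample over reference; it was used only as an alternative.

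From the scanner intensities, background was corrected by normexp with an offset of 50, arrays were normalized by loess within and quantiles between arrays of an experiment, and outlier-flagged and control spots were left out (limma 3.58.1, R 4.3.3). Spots of a probe were averaged, and a gene was taken from its brightest probe. Of 41174 probes, 23075 were named through an accession. limma was fitted to all groups of an experiment, with Benjamini-Hochberg adjustment over 28783 genes and a call at an adjusted p below 0.05. The fit was tested on simulated data. Nothing states that samples of a group came from separate animals, so p-values measure the spread between these samples, and the number of arrays limits the precision. The rule for named genes took, per comparison, the 3 largest rises and 3 largest falls among called members that did not overlap and were well above background on every array, the brightest member of each complex, the Sdh genes, isoform sets and members whose probes disagree; other members were named after their values were seen. Same-numbered replicates did not all deviate together (correlations -0.413 to 0.326 in progression, with 8 of 31 over 0.1, and -0.415 to 0.424 in chemotherapy, with 6 of 14 over 0.1), so replicate numbers were not used as pairs. Ratios have no dye swap. Alternatives covered background, normalization, probes, slides and single replicates. The values of 1 member by name are not reported here.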

Additional observations from a re-analysis of the deposited data

Results flagged for a closer look

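In 14 of 196 groups of 4 to 6 samples examined, 1 sample stood far from the others, and chance alone flags about 1 in 20. Carcinoma replicate 6 was low for the complex V median (-0.11, others 0.50 to 0.86), Ndufb10 (-0.075, others 0.65 to 0.94), Ndufb2 (1.35, others 2.04 to 2.40) and Uqcr (0.15, others 1.47 to 2.24), and high for Sdhd (-1.13, others -2.54 to -2.16). Carcinoma replicate 1 was low for Cox7a2l (-2.59, others -2.23 to -2.10) and Sdhb (-1.48, others -0.59 to -0.26). Metastasis replicate 5 was high for Atp5d (2.44, others 1.18 to 1.42), Atp5g1 (-1.62, others -2.36 to -2.20) and Ndufa11 (-1.06, others -1.67 to -1.58), and metastasis replicate 4 was low for Atp5s (-1.83, others -0.94 to -0.59). Disseminated replicate 6 was high for Sdhd (-0.55, others -2.62 to -1.85). In the chemotherapy arrays, untreated replicate 5 was high for the complex IV median (0.25, others -0.08 to 0.03) and residual replicate 3 for Cox6b1 (0.13, others -0.39 to -0.20).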

How the results depend on the processing

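Counts of called members are given first, without the share of all genes called in the same fits. They therefore do not show whether members lost or gained calls more than other genes did. Requiring a change of 2-fold left 7 in carcinomas against adenomas, 25 in disseminated cells against adenomas and 13 in metastases against disseminated cells. Fitting only the groups compared gave 23 and 11 in the first and last of these. The deposited log2 ratios gave 30 in disseminated cells against adenomas, with member medians of -0.45 there, -0.45 in metastases against adenomas and -0.61 against carcinomas. Adding the mean of the macrophage markers to the fit, an alternative chosen once the data had been seen, left 0 in disseminated cells against adenomas (median -0.37) and 13 against carcinomas, with a median of -0.56 in metastases against adenomas; leaving out carcinoma replicate 6 as well left 0 in disseminated cells and 8 in metastases against carcinomas. Leaving out 1 replicate gave 10 to 17 in carcinomas against adenomas, 33 to 50 in disseminated cells against adenomas, 47 to 58 in metastases against carcinomas, 23 to 43 in metastases against disseminated cells (43 without disseminated replicate 6), and 0 after chemotherapy. With the replicate block, 14, 36, 56 and 37 were called in the same order, and 0 after chemotherapy. The mean of a gene's probes reversed Cycs (0.25 and 0.24 in disseminated cells and metastases against adenomas, 0.37 in metastases against carcinomas) and Uqcrq (0.28 in metastases against adenomas). The cause of these changes was not tested. Of 136 calls of named genes, 36 held in every alternative run.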
